A study of Rattus norvegicus with 14 samples.

Results

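The genes described here are 8 genes of fatty acid oxidation in rat liver that are grouped around the nuclear receptor PPAR alpha: its own gene Ppara, the fatty acid hydroxylases Cyp4a1, Cyp4a3 and Cyp4a8, the peroxisomal enzymes Ehhadh and Crot, the mitochondrial entry enzyme Cpt1a, and the kinase Pdk4. They were taken by symbol from probe sets annotated with a single gene, and where a gene had more than 1 such probe set the brightest on average was kept. All 8 were found among the 14497 genes measured in this way. Levels are array intensities, and each comparison is a difference of mean log2 intensity with its standard error.

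RNA came from laser-captured regions of fixed, paraffin-embedded liver of male F344 rats, an inbred strain, with 3 animals in each of 4 groups. Both groups of foci followed the Solt-Farber protocol, a rat model of chemical liver carcinogenesis: diethylnitrosamine at 200 mg/kg on day 1, a 2.5 mg pellet of 2-acetylaminofluorene (AAF) on day 14, which stops hepatocytes from dividing, and partial hepatectomy on day 21. At hepatectomy the rapamycin group received a 21-day pellet that released 2.5 mg/kg per day of this mTOR inhibitor, and the placebo group a placebo pellet. Persistent lesions that stained for the placental glutathione S-transferase (GSTP) were captured from both groups on day 70, and how many lesions an animal gave is not stated in the labels. AAF/PH liver came from rats that had no diethylnitrosamine: a 2.5 mg AAF pellet was placed on day 1, hepatectomy followed on day 7, and liver was taken on day 14, while oval cells, progenitor cells of the liver, multiply. Normal liver came from unmanipulated adults. Foci and AAF/PH liver therefore differ in carcinogen, in time since AAF and surgery and in what was captured, and these cannot be told apart. The labels give no ages. Comparing both kinds of foci asks whether rapamycin left a mark on the lesions that persisted.

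PPAR alpha binds fatty acids, pairs with the retinoid X receptor and switches on genes that burn fat in hepatocytes, most of all in fasting. Its targets lie in several compartments: the CYP4A enzymes of the endoplasmic reticulum hydroxylate the far end of fatty acids, peroxisomes shorten long and hydroxylated chains, and mitochondria oxidise the products and turn them into ketone bodies. In rodents the CYP4A genes and Ehhadh are classical targets that rise strongly when the receptor is activated by drugs such as fibrates.

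Some features of the whole data set bear on every value. Rapamycin animal 3 was run on 3 arrays, 2 from the same RNA and 1 from a second laser capture, and the series' design text reports that it clustered apart from its group. Its arrays had a narrower spread of log2 intensities (interquartile range 1.57 to 1.71) than all others (1.98 to 2.80), correlated with each other at 0.970 to 0.975 across probe sets, and were averaged into 1 value. The spread also differed between groups, at 2.36 to 2.80 in normal liver, 1.98 to 2.26 in AAF/PH liver and 2.14 to 2.61 in placebo foci. In rapamycin animals 1 and 2 it was 2.38 and 2.50. The part of array spread in the results below was not tested. Gstp1, the gene of the marker used to choose the lesions, averaged 3117 in rapamycin foci, 4023 in placebo foci, 182 in AAF/PH liver and 109.6 in normal liver. The summed intensity of 7 hepatocyte markers was 13363 to 22837 in rapamycin foci, 15797 to 18796 in placebo foci, 13322 to 14353 in AAF/PH liver and 21980.2 to 24185 in normal liver. The summed intensity of 6 biliary and oval cell markers was 198 to 407 in rapamycin foci, 382 to 623 in placebo foci, 606 to 810.0 in AAF/PH liver and 118 to 156 in normal liver. None of the markers was listed at 0. In captured tissue, fewer cells of a type and less RNA per cell cannot be told apart, and the part of these cell markers in the results below was not tested.

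**Figure D1:**
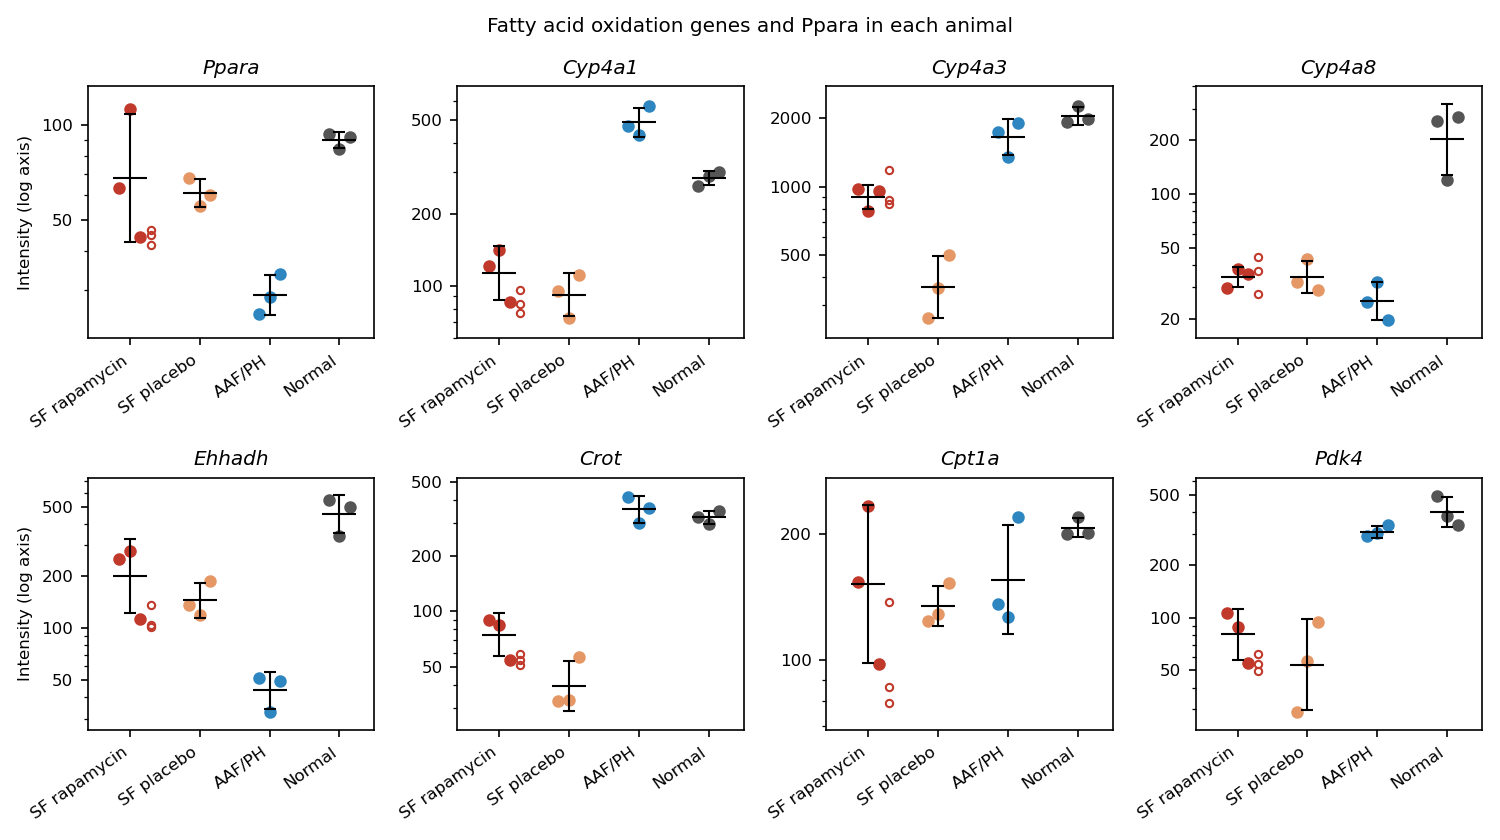
Intensity (log axis) of Ppara, the CYP4A genes, Ehhadh, Crot, Cpt1a and Pdk4 in rapamycin foci, placebo foci, AAF/PH liver and normal liver. Filled points are animals, open points the 3 arrays averaged for rapamycin animal 3, and bars the mean ± SD of log2 intensity (n = 3 each). Cyp4a1, Cyp4a3, Crot and Pdk4 were low in both kinds of foci and not in AAF/PH liver, whereas Ehhadh and Ppara were lowest in AAF/PH liver.

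Ppara (probe set 10898359, chromosome 7), which encodes the receptor itself, was lowest in AAF/PH liver. Its intensity was 63.3, 112 and 44.3 in the 3 rapamycin animals, 68.0, 55.4 and 59.9 in the placebo animals, 25.2, 28.5 and 33.7 in the AAF/PH animals and 94.0, 84.4 and 91.5 in the normal animals. All AAF/PH values lay below all values of the other groups, and the rapamycin values spanned those of normal and placebo. Ppara fell 3.11-fold in AAF/PH liver against normal liver (log2 difference -1.63 ± 0.26, limma adjusted p = 0.000559). The AAF/PH values are near the median intensity of an array (19.8 to 25.4), so how far they stand above background is not known. In foci the difference from normal liver did not pass, at -0.40 ± 0.26 for rapamycin (adjusted p = 0.317) and -0.56 ± 0.26 for placebo (adjusted p = 0.246), although every placebo value was below every normal value. The placebo difference passed with REML array weights (adjusted p = 0.00334), with gene-by-gene weights (0.0209) and with only these 2 groups in the fit (0.0276). These settings also raised the calls over all genes from 1192 to 6443, 5315 and 2297. The array weights were unstable, as set out at the end. The rapamycin value rested on animal 2: without it the difference was -0.76 (adjusted p = 0.0311), and without animal 3 it was -0.09.

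The 3 measured CYP4A genes lie in 1 cluster on chromosome 5, in the order Cyp4a8, Cyp4a2, Cyp4a2l1, Cyp4a3 and Cyp4a1, with Cyp4x1 and Cyp4b1 on the flanks (RefSeq, GRCr8). No single-gene probe set carried the name Cyp4a2, a close copy of Cyp4a3, so the Cyp4a3 signal may hold both transcripts and is uncertain in that respect. The 250 bases before the start of Cyp4a3 and Cyp4a2 are shown because they make that likeness visible, and those of Cyp4a8 because that gene was called lower in AAF/PH liver and Cyp4a3 was not. They were read from RefSeq promoters of GRCr8 at chr5:134352237-134352486, chr5:134170909-134171158 and chr5:133970227-133970476, all on the minus strand, and are written 5′ to 3′. Capitals mark AGGTCA, the half-site of nuclear receptors of this class.

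Cyp4a3: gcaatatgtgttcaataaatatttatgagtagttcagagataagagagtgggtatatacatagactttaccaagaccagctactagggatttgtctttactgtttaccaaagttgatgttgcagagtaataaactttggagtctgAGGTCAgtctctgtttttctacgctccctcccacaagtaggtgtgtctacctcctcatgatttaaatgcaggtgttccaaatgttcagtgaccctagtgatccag
Cyp4a2: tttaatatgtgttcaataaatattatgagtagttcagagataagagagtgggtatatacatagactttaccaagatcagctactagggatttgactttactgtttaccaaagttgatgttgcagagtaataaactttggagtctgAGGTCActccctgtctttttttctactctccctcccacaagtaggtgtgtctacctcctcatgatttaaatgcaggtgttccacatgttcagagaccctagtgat
Cyp4a8: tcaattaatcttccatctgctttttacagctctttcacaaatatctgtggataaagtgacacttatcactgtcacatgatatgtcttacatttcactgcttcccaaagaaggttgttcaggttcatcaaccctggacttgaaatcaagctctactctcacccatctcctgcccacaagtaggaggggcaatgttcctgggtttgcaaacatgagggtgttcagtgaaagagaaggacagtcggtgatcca

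Lined up without gaps, Cyp4a3 and Cyp4a2 had the same letter at 167 of 250 positions, against 74 of 250 for Cyp4a3 and Cyp4a8. In both Cyp4a3 and Cyp4a2 the half-site began at position -105 from the start. AGGTCA or its reverse complement TGACCT was in 14.1% of the 33469 promoters of this length, and in 1 of the 7 genes described here that the table lists, namely Cyp4a3 (Cyp4a1 was not listed). The direct repeat that PPAR alpha binds with its partner was searched on both strands as AGGTCANAGGTCA, found in 0.0508% of all promoters, and as AGGNCANAGGNCA, found in 0.368%, and neither was found in the 7. These letters describe the windows and say nothing on whether the receptor binds elsewhere.

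Cyp4a3 (probe set 10878787), a hydroxylase of medium and long fatty acids, was lowest in placebo foci, higher in rapamycin foci and highest in liver without lesions. Its intensity was 973, 780.2 and 953 in the rapamycin animals, 263, 357 and 497 in the placebo animals, 1751, 1353 and 1911 in the AAF/PH animals and 1921, 2269 and 1984 in the normal animals. No 2 of the groups overlapped. Against normal liver Cyp4a3 fell 2.29-fold in rapamycin foci (log2 difference -1.19 ± 0.22, adjusted p = 0.00727) and 5.70-fold in placebo foci (-2.51 ± 0.22, adjusted p = 9.32e-06). In AAF/PH liver the difference of -0.31 ± 0.22 did not pass (adjusted p = 0.328).

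Cyp4a1 (probe set 10871087), the rat CYP4A enzyme best known for its response to clofibrate, was low in foci and high in AAF/PH liver. Its intensity was 121, 141 and 84.9 in the rapamycin animals, 94.5, 73.1 and 111 in the placebo animals, 470.2, 432 and 569 in the AAF/PH animals and 263, 289 and 301 in the normal animals. Both kinds of foci overlapped each other and lay below every normal animal, and every AAF/PH animal lay above. Cyp4a1 fell 2.50-fold in rapamycin foci (-1.32 ± 0.22, adjusted p = 0.003) and 3.10-fold in placebo foci (-1.63 ± 0.22, adjusted p = 0.00028) against normal liver, and rose 1.72-fold in AAF/PH liver (0.78 ± 0.22, adjusted p = 0.0197). The rise in AAF/PH liver lost its call when the arrays were centred on their medians (0.59, adjusted p = 0.124) and without normal animal 1, normal animal 3 or AAF/PH animal 3 (adjusted p = 0.0873, 0.0505 and 0.0779). After quantile normalization it was 1.26.

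Cyp4a8 (probe set 10878767), a further CYP4A hydroxylase, was low in every treated group. Its intensity was 29.7, 38.2 and 35.7 in the rapamycin animals, 32.1, 43.4 and 28.9 in the placebo animals, 24.9, 32.1 and 19.7 in the AAF/PH animals and 255, 119.8 and 270.1 in the normal animals. The treated groups overlapped one another and none reached the lowest normal animal. Cyp4a8 fell 5.88-fold in rapamycin foci (-2.56 ± 0.29), 5.89-fold in placebo foci (-2.56 ± 0.29) and 8.05-fold in AAF/PH liver (-3.01 ± 0.29) against normal liver, with limma adjusted p of 0.000196, 6.93e-05 and 6.65e-06. The treated values are near the median intensity of an array, which ranged from 19.8 to 25.4, and no detection value came with the intensities, so how far they stand above background is not known. The same limit applies to the lowest values of Crot, Pdk4 and Ehhadh given below. In the wider pathway it applies to the lowest group values of Acacb, Bbox1, Hacl1, Angptl4 and Acot2.

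The peroxisomal pair fell in both kinds of foci against normal liver but differed in AAF/PH liver. Ehhadh (probe set 10752081, chromosome 11), the bifunctional enzyme that carries out the middle steps of peroxisomal beta-oxidation, had an intensity of 251, 277 and 113 in the rapamycin animals, 135, 119 and 187 in the placebo animals, 51.2, 32.8 and 49.2 in the AAF/PH animals and 548, 341 and 496 in the normal animals. Foci lay between AAF/PH and normal liver, with no overlap with either. Ehhadh fell 10.4-fold in AAF/PH liver (-3.38 ± 0.32, adjusted p = 5.94e-06), the deepest fall among the 8 genes in that comparison, and 3.13-fold in placebo foci (-1.65 ± 0.32, adjusted p = 0.00459). In rapamycin foci it fell 2.28-fold (-1.19 ± 0.32, adjusted p = 0.0392), a call that was lost in 9 of 19 alternatives, among them without rapamycin animal 3 (-0.78, adjusted p = 0.0652), without normal animal 1 (adjusted p = 0.194) or 3 (0.152), and with the replicate number as a block (adjusted p = 0.0695).

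Crot (probe set 10860548, chromosome 4), the carnitine octanoyltransferase that lets medium chains leave the peroxisome for the mitochondrion, was not called lower in AAF/PH liver. Its intensity was 89.7, 84.4 and 54.9 in the rapamycin animals, 32.7, 33.2 and 56.6 in the placebo animals, 416, 299 and 364 in the AAF/PH animals and 324, 298 and 350.2 in the normal animals. AAF/PH and normal animals overlapped, and all foci lay far below them. Crot fell 4.33-fold in rapamycin foci (-2.11 ± 0.24, adjusted p = 0.000227) and 8.19-fold in placebo foci (-3.03 ± 0.24, adjusted p = 4.36e-06) against normal liver, whereas in AAF/PH liver the difference was 0.14 ± 0.24 (adjusted p = 0.691), with -0.05 after median centring and 0.66 (adjusted p = 0.0217) after quantile normalization.

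The upstream sequences of these peroxisomal genes are shown because they hold more CG than the windows of Cyp4a3, Cyp4a2 and Cyp4a8 above. They stand at chr11:92746159-92746408 for Ehhadh and chr4:26052874-26053123 for Crot, both on the plus strand (RefSeq, GRCr8, 5′ to 3′). There are no capitals because the half-site was not found.

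Ehhadh: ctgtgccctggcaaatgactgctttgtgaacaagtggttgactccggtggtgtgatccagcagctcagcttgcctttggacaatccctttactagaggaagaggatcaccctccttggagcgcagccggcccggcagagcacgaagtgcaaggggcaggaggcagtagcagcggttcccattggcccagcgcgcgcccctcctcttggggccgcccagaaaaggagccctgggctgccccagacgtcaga
Crot: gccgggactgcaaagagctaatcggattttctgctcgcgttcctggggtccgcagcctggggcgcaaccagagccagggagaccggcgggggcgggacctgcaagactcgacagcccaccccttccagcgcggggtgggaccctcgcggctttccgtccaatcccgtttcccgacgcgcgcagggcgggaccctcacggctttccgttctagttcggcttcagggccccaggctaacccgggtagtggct

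The G and C content of these windows was 62% for Ehhadh and 68% for Crot, against 39.6% for Cyp4a3 and 43.2% for Cyp4a8 and a median of 51.2% over all promoters. Crot held 25 CG pairs and Ehhadh 11, while Cyp4a3 and Cyp4a8 held 1 each and the median promoter 5. CG pairs were not particular to the peroxisomal genes, as Ppara held 27, Cpt1a 10 and Pdk4 9. Cyp4a3 and Crot were called lower in both kinds of foci and not in AAF/PH liver, and Cyp4a8 and Ehhadh were called lower in all of these groups. Whether CG content bears on these calls was not tested.

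Cpt1a (probe set 10712657, chromosome 1), the enzyme that hands long fatty acids to carnitine at the mitochondrial outer membrane, had its widest spread among the rapamycin animals. Its intensity was 154, 233 and 98.1 in the rapamycin animals, 124, 129 and 153 in the placebo animals, 136, 126 and 218 in the AAF/PH animals and 199.7, 219 and 201 in the normal animals. Only the placebo animals lay wholly below the normal ones. The comparisons of Cpt1a did not pass: the differences from normal liver were -0.44 ± 0.28 in rapamycin foci, -0.62 ± 0.28 in placebo foci and -0.41 ± 0.28 in AAF/PH liver, with adjusted p of 0.296, 0.223 and 0.297. The 95% intervals, from -1.03 to 0.15, from -1.20 to -0.03 and from -0.999 to 0.18, leave room for a fall of about 1 log2 unit in each. In placebo foci Cpt1a passed in 3 alternatives, namely with REML array weights (adjusted p = 0.00237), with gene-by-gene weights (0.00782) and with only these 2 groups in the fit (0.0164), and in AAF/PH liver with REML weights (0.0372). As for Ppara, these settings also raised the calls over all genes, and the array weights were unstable.

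Pdk4 (probe set 10860900, chromosome 4) encodes a kinase that shuts off pyruvate dehydrogenase, so that fat rather than glucose is burned. Its intensity was 106, 88.9 and 55.2 in the rapamycin animals, 29.1, 56.8 and 94.9 in the placebo animals, 289.5, 302 and 337 in the AAF/PH animals and 494, 378 and 336 in the normal animals. The foci groups overlapped and both lay below all animals without lesions. Pdk4 fell 4.95-fold in rapamycin foci (-2.31 ± 0.34, adjusted p = 0.00167) and 7.37-fold in placebo foci (-2.88 ± 0.34, adjusted p = 0.000122), and the difference of -0.36 ± 0.34 in AAF/PH liver did not pass (adjusted p = 0.455).

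Read by group, 6 of the 8 genes fell in rapamycin foci against normal liver, where 4.93% of all genes tested were called lower, and 0 rose, where 1.60% were called higher. Cpt1a and Ppara did not pass. The same 6 genes fell in placebo foci and 0 rose, where 5.38% of all genes were called lower and 2.84% higher. All 8 were called lower with either set of array weights or with only these 2 groups in the fit. Under those settings more of the 14497 genes were also called lower, at 3592 with REML weights and 3187 with gene-by-gene weights. With only the 2 groups it was 1586, against 780 in the main fit. The animals of rapamycin foci and normal liver did not overlap for 6 of the 8 genes, against 29.7% of all genes, and those of placebo foci and normal liver for all 8, against 30.5%. The median difference of the 8 genes was -1.26 in rapamycin foci and -2.08 in placebo foci, beside 0.07 and 0.04 over all genes tested. In AAF/PH liver 3 of the 8 fell (Ehhadh, Cyp4a8 and Ppara), where 12.5% of all genes were called lower, and 1 rose (Cyp4a1), where 7.54% were called higher. AAF/PH and normal animals did not overlap for 5 of the 8, against 49.6% of all genes. The median there was -0.39, beside 0.12 over all genes. The 3 comparisons share the normal animals. Cell markers moved beside these genes: of 7 hepatocyte markers 0 were called lower by limma in rapamycin foci (3 had an unadjusted p under 0.05), 3 in placebo foci and 4 in AAF/PH liver, and of 6 biliary and oval cell markers 2, 3 and 5 were called higher. Of 7 stellate cell and matrix markers 0, 1 and 5 were called higher in the same order (0, 3 and 6 had an unadjusted p under 0.05), with a summed intensity of 1401 to 4201 in AAF/PH liver and 545 to 722 in normal liver. Of 6 macrophage markers 3 were called lower in rapamycin foci and 1 in placebo foci, and 1 was called higher in AAF/PH liver.

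**Figure D2:**
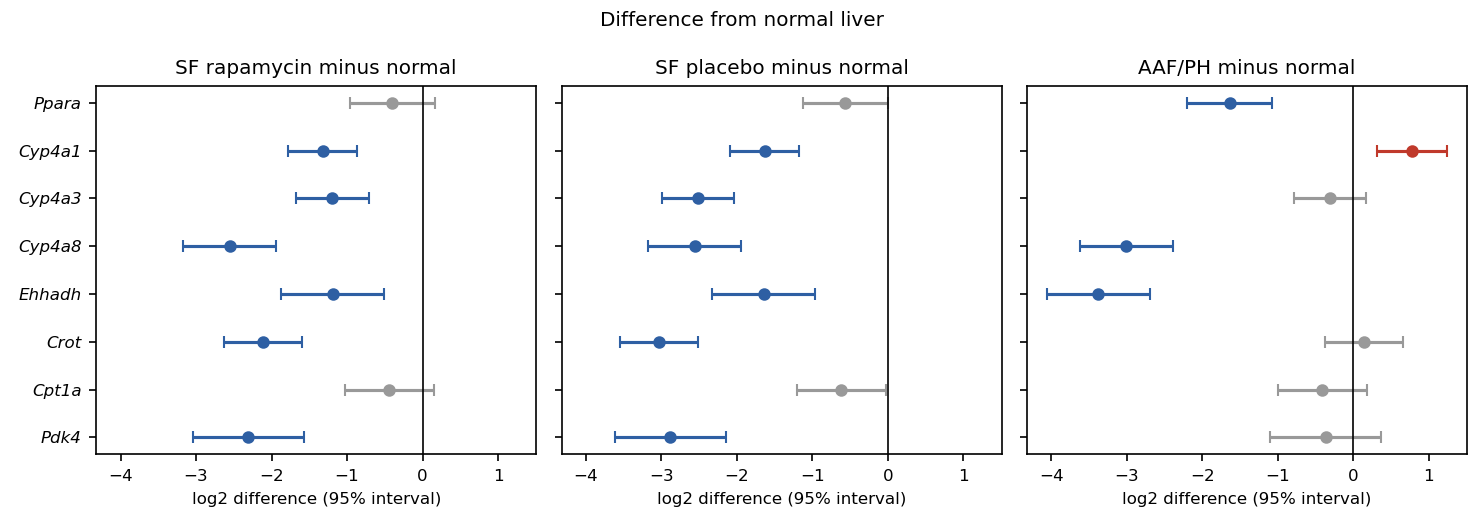
Log2 difference from normal liver (x axis, with its 95% interval) of each gene in rapamycin foci, placebo foci and AAF/PH liver, from the limma fit. Blue points were called lower, red points higher and grey points not called at an adjusted p under 0.05. Crot, Pdk4 and Cyp4a3 stood at -3.03, -2.88 and -2.51 in placebo foci and were not called in AAF/PH liver.

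The wider pathway was read from 9 lists with 134 further genes, of which 117 were measured. Against normal liver 33 of the 117 fell and 0 rose in rapamycin foci, 37 fell and 2 rose in placebo foci, and 54 fell and 4 rose in AAF/PH liver. Of all genes tested 4.93%, 5.38% and 12.5% were called lower in the same order, and 1.60%, 2.84% and 7.54% higher. These shares also stand beside the counts of single lists against normal liver below. Some listed genes oppose oxidation, such as Acacb, which makes the inhibitor of Cpt1a, so the counts do not give the direction of the pathway. The median differences of the 117 genes were -0.60, -0.53 and -0.75, beside 0.07, 0.04 and 0.12 over all genes. The count in rapamycin foci depended on single animals: it was 7 without normal animal 1, 8 without normal animal 3 and 54 without rapamycin animal 2. The 39 calls in placebo foci became 23 and 25 without normal animal 1 or 3, and 24 without placebo animal 1 or 2.

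Among the partners of the receptor, 2 of 14 fell in rapamycin foci, 2 in placebo foci and 5 in AAF/PH liver, and 0 rose. Creb3l3, a liver transcription factor that works with PPAR alpha in fasting, averaged 256 in rapamycin foci, 199 in placebo foci and 503 in normal liver (-0.98 ± 0.21, adjusted p = 0.0146, and -1.34 ± 0.21, adjusted p = 0.00109). Rxra, the retinoid X receptor with which PPAR alpha pairs, averaged 326, 269 and 571 in the same order (-0.81 ± 0.22, adjusted p = 0.0437, and -1.09 ± 0.22, adjusted p = 0.00659). In AAF/PH liver Rxra averaged 245 (-1.22 ± 0.22, adjusted p = 0.0014). Both rapamycin calls were lost without normal animal 1 or 3, at adjusted p of 0.0775 and 0.0828 for Creb3l3 and 0.169 and 0.154 for Rxra. That of Rxra was also lost without normal animal 2 (0.0689), without rapamycin animal 3 (0.095) and with the replicate block (0.0917).

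Uptake, binding and activation of fatty acids had 6 of 16 genes lower in rapamycin foci, 6 lower and 2 higher in placebo foci, and 5 lower and 1 higher in AAF/PH liver. Slc27a5, a transporter and bile acid ligase of hepatocytes, had an intensity of 187, 149 and 119 in rapamycin foci, 64.2, 73.8 and 109 in placebo foci and 687 to 949.8 in normal liver. It fell by 2.48 ± 0.25 in rapamycin foci (adjusted p = 7.64e-05) and by 3.38 ± 0.25 in placebo foci (adjusted p = 2.61e-06). In AAF/PH liver Slc27a5 averaged 78.9 and fell by 3.40 ± 0.25 (adjusted p = 7.74e-07). Acsl1, the main acyl-CoA synthetase of liver, averaged 478 in rapamycin foci, 320.3 in placebo foci and 1059 in normal liver (-1.15 ± 0.22, adjusted p = 0.00747, and -1.72 ± 0.22, adjusted p = 0.00018), and the rapamycin call was lost without normal animal 1 (adjusted p = 0.053). In AAF/PH liver Acsl1 averaged 123 (-3.10 ± 0.22, adjusted p = 4.19e-07), lower than in either kind of foci. The genes called higher in placebo foci were Fabp4 and Fabp5, fatty acid binding proteins better known from adipocytes and skin. Fabp4 averaged 29.7 in placebo foci and 11.9 in normal liver (1.32 ± 0.27, adjusted p = 0.00575), and Fabp5 averaged 35.3 and 20.6 (0.78 ± 0.19, adjusted p = 0.0204). Both had a mean log2 intensity under 5, and Fabp5 lost its call with median centring (adjusted p = 0.0684) and without normal animal 2 or 3 or placebo animal 1 or 2 (0.0762 to 0.114).

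Peroxisomal oxidation was the list with most calls in foci, at 9 of 17 lower in each kind and 11 of 17 lower in AAF/PH liver, and 0 rose. Phyh, the enzyme that starts the breakdown of phytanic acid, had an intensity of 673, 819.6 and 398 in rapamycin foci, 344, 368 and 521 in placebo foci and 1790 to 2015 in normal liver. It fell by 1.68 ± 0.27 (adjusted p = 0.003) and by 2.26 ± 0.27 (adjusted p = 0.000139). Hacl1, which acts next on the same substrate, fell by 2.46 ± 0.35 in rapamycin foci, by 2.41 ± 0.35 in placebo foci and by 3.60 ± 0.35 in AAF/PH liver. Amacr, the racemase that prepares branched chains for oxidation, fell by 1.89 ± 0.30, by 2.11 ± 0.30 and by 3.00 ± 0.30 in the same 3 comparisons. Adjusted p for Hacl1 and Amacr was 0.00132 and 0.00252 in rapamycin foci, 0.000599 and 0.000485 in placebo foci, and 7.77e-06 and 9.62e-06 in AAF/PH liver.

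Of 18 genes of mitochondrial beta-oxidation, 7 fell in rapamycin foci, 6 in placebo foci and 11 in AAF/PH liver, where 1 rose (Eci1, at 0.65 ± 0.20, a call lost in 8 of 19 alternatives, among them median centring with an adjusted p of 0.19). Of 11 genes of carnitine and mitochondrial entry, 2 fell in rapamycin foci, 3 in placebo foci and 6 in AAF/PH liver, where Cpt1c rose. Of the 5 genes of ketone body synthesis measured, 1, 2 and 3 fell in these comparisons. In AAF/PH liver the called gene of smallest p in each of these lists was Hadh, a mitochondrial 3-hydroxyacyl-CoA dehydrogenase (-2.53 ± 0.31, adjusted p = 6.46e-05), Acacb, the acetyl-CoA carboxylase that makes the inhibitor of Cpt1a (-2.88 ± 0.34, adjusted p = 4.53e-05), and Bdh1, which makes hydroxybutyrate (-2.66 ± 0.30, adjusted p = 3.21e-05). Bbox1, which makes carnitine, was lower still on average (-3.08 ± 0.41, adjusted p = 0.000122). Acacb and Bbox1 averaged 19.1 and 22.6 in AAF/PH liver, below the median intensity of its arrays (22.7 to 23.7). How far these values stand above background is not known.

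Of 9 other CYP4 genes, 2 fell in each kind of foci and 4 in AAF/PH liver, led by Cyp4f4 at -3.52 ± 0.32 (adjusted p = 4.33e-06), which averaged 39.3 in AAF/PH liver and 452 in normal liver. Of 16 other PPAR alpha targets, 4 fell in rapamycin foci, 7 in placebo foci and 5 in AAF/PH liver, where Ucp2 rose. Angptl4, a secreted inhibitor of lipoprotein lipase, had an intensity of 65.6, 46.0 and 47.4 in rapamycin foci, 31.0, 26.7 and 46.0 in placebo foci, 199.1, 124 and 320.1 in AAF/PH liver and 463, 258 and 378 in normal liver. It fell by 2.77 ± 0.32 in rapamycin foci (adjusted p = 0.000239) and by 3.40 ± 0.32 in placebo foci (adjusted p = 1.62e-05). Of 11 genes of the pyruvate dehydrogenase switch around Pdk4, 0 were called by limma in either kind of foci, with 5 in rapamycin foci and 3 in placebo foci at an unadjusted p under 0.05, against 26.6% and 20.4% of all genes, and 4 fell in AAF/PH liver.

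**Figure D3:**
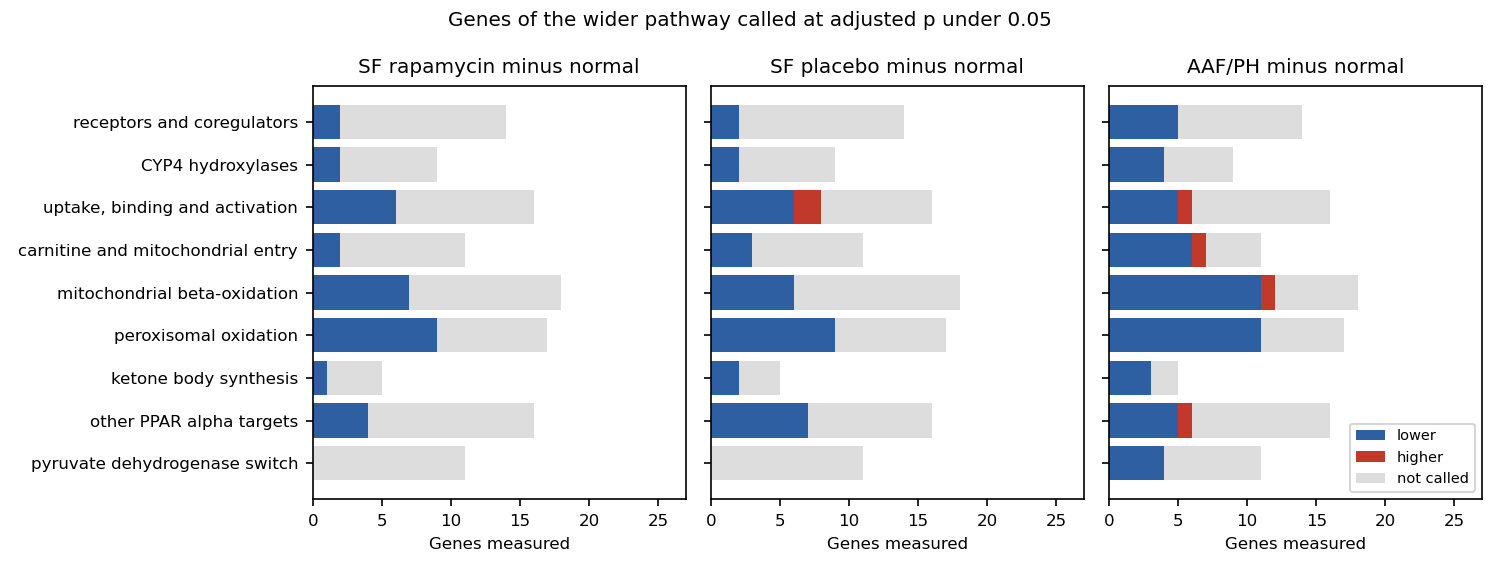
Number of genes measured in each of the 9 lists (bar length) that were called lower (blue), higher (red) or not called (grey) against normal liver at a limma adjusted p under 0.05, for rapamycin foci, placebo foci and AAF/PH liver. Peroxisomal oxidation had 9, 9 and 11 genes lower, and the pyruvate dehydrogenase switch 0, 0 and 4.

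Both kinds of foci were then set against AAF/PH liver directly, with the same animals and the same fit, so these values restate the differences given above as 1 contrast each. In rapamycin foci 4 of the 8 were lower than in AAF/PH liver, where 1.87% of all genes were called lower, and 2 were higher, where 2.14% were called higher. In placebo foci it was the same 4 lower and the same 2 higher, with 1.57% and 2.62% of all genes. These 6 were also the genes without overlap, against 13.6% of all genes for rapamycin and 25.7% for placebo. The comparisons share the AAF/PH animals. Crot was 4.77-fold lower in rapamycin foci (-2.25 ± 0.24, adjusted p = 9.28e-05) and 9.03-fold lower in placebo foci (-3.17 ± 0.24, adjusted p = 6.7e-06), where it ranked 5 among all genes by the size of the moderated t. Cyp4a1 was 4.30-fold lower (-2.10 ± 0.22, adjusted p = 5.99e-05) and 5.33-fold lower (-2.41 ± 0.22, adjusted p = 2.3e-05). Pdk4 was 3.85-fold and 5.72-fold lower, at -1.94 ± 0.34 (adjusted p = 0.00394) and -2.52 ± 0.34 (adjusted p = 0.000563).

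Cyp4a3 was 4.59-fold lower in placebo foci than in AAF/PH liver (-2.20 ± 0.22, adjusted p = 4.82e-05). In rapamycin foci it was 1.84-fold lower (-0.88 ± 0.22, adjusted p = 0.0391), a call lost in 10 of 19 alternatives, among them without AAF/PH animal 1 (adjusted p = 0.132) or 3 (0.186), without rapamycin animal 1 (0.0904) or 2 (0.137) and with the replicate block (0.0632). Ehhadh was 4.56-fold higher in rapamycin foci (2.19 ± 0.32, adjusted p = 0.00096) and 3.32-fold higher in placebo foci (1.73 ± 0.32, adjusted p = 0.0052). Ppara was 2.35-fold higher (1.23 ± 0.26, adjusted p = 0.0146) and 2.10-fold higher (1.07 ± 0.26, adjusted p = 0.0325). Its placebo call was lost when any AAF/PH or placebo animal was left out (adjusted p from 0.0633 to 0.135) and with the replicate block (0.0695), and its rapamycin call without AAF/PH animal 1 (0.0686) or 2 (0.0581). Cyp4a8 and Cpt1a did not pass, at 0.45 ± 0.29 and -0.03 ± 0.28 in rapamycin foci and 0.45 ± 0.29 and -0.21 ± 0.28 in placebo foci.

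**Figure D4:**
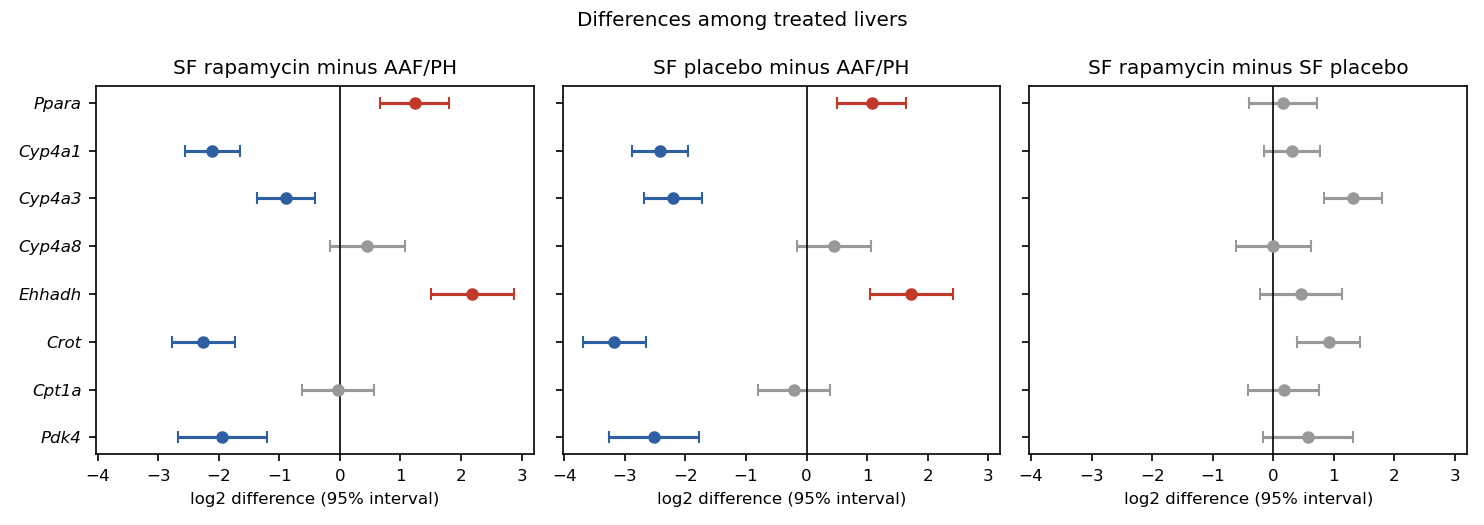
Log2 difference (x axis, with its 95% interval) of each gene in rapamycin foci minus AAF/PH liver, placebo foci minus AAF/PH liver, and rapamycin foci minus placebo foci. Blue points were called lower, red points higher and grey points not called at an adjusted p under 0.05. Crot, Cyp4a1, Pdk4 and Cyp4a3 lay left of 0 and Ehhadh and Ppara right of it in both comparisons with AAF/PH liver, and all 8 points of the last panel were not called.

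Of the 117 genes of the wider pathway, 11 were higher and 5 lower in rapamycin foci than in AAF/PH liver, beside 2.14% and 1.87% of all genes. In placebo foci 14 were higher and 5 lower, beside 2.62% and 1.57% of all genes. This balance rested on single animals: it was 8 higher and 7 lower in rapamycin foci without rapamycin animal 2, and in placebo foci 7 higher and 8 lower without AAF/PH animal 2 and 6 of each without placebo animal 3. The 16 calls in rapamycin foci became 10 without AAF/PH animal 3 and 52 without rapamycin animal 3, and the 19 in placebo foci became 10 without AAF/PH animal 3 and 12 without placebo animal 1 or 3. The genes that were lower in both were Eci1, Angptl4 and Acot2. Eci1, a mitochondrial isomerase for unsaturated chains, averaged 115 in rapamycin foci and 342 in AAF/PH liver (-1.58 ± 0.20, adjusted p = 0.00026), and 100.4 in placebo foci (-1.77 ± 0.20, adjusted p = 0.000105). Acot2, a mitochondrial thioesterase, averaged 34.1 in rapamycin foci, 36.3 in placebo foci and 108 in AAF/PH liver (-1.67 ± 0.25, adjusted p = 0.00126, and -1.58 ± 0.25, adjusted p = 0.00186). The genes that were higher in both numbered 9, namely Cyp4f4, Acsl1, Acaca, Acacb, Acad10, Cat, Acat1, Bdh1 and Pdk2. Several of these calls rested on single animals: that of Acaca in placebo foci was lost when any AAF/PH or placebo animal was left out (adjusted p from 0.0623 to 0.13), and in rapamycin foci when any 1 of 5 animals was left out (0.0833 to 0.142). Calls of Acat1 were lost in both kinds of foci without single animals (0.0519 to 0.095), those of Acad10 in both without AAF/PH animal 3 (0.0636 and 0.0566), and that of Bdh1 in placebo foci when any 1 of 4 animals was left out (0.0617 to 0.0756). Acacb averaged 97.0 in rapamycin foci, 101 in placebo foci and 19.1 in AAF/PH liver (2.35 ± 0.34, adjusted p = 0.000926, and 2.41 ± 0.34, adjusted p = 0.000745). Cat, the peroxisomal catalase, averaged 2638, 2607 and 786 in the same order (1.75 ± 0.23, adjusted p = 0.000422, and 1.73 ± 0.23, adjusted p = 0.000478). The Acacb value of AAF/PH liver lies below the median intensity of its arrays (22.7 to 23.7), so how far it stands above background is not known. Cell markers differed here too. Of 6 biliary and oval cell markers 3 were called lower in rapamycin foci than in AAF/PH liver and 1 in placebo foci. In placebo foci 3 of these had a difference below 0 and 3 above. Of 7 stellate cell and matrix markers 5 were lower in each kind of foci. Of 7 hepatocyte markers 2 were higher and 1 lower in rapamycin foci, and 2 higher and 2 lower in placebo foci. Of 6 macrophage markers 2 were lower in rapamycin foci and 1 in placebo foci. The part of these markers in the differences was not tested.

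**Figure D5:**
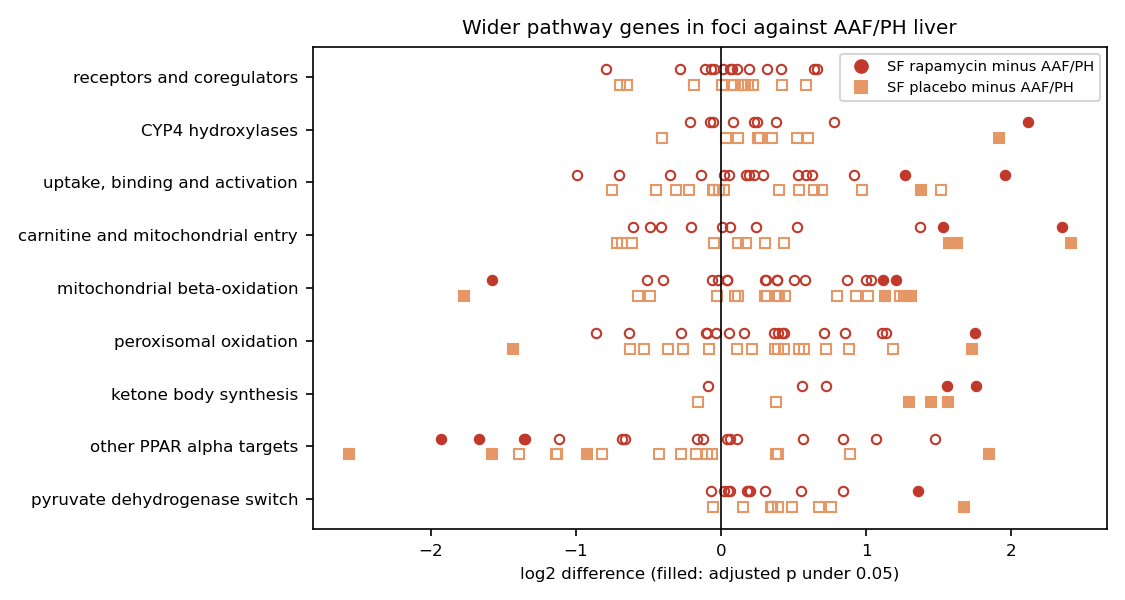
Log2 difference from AAF/PH liver (x axis) of each of the 117 measured genes of the 9 lists, in rapamycin foci (circles) and placebo foci (squares), with filled marks at a limma adjusted p under 0.05. Filled marks left of 0 lie mostly among the other PPAR alpha targets, with Angptl4 at -1.93 and -2.56, while Acacb reached 2.35 and 2.41.

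Between the foci of rapamycin and placebo rats, 0 of the 8 genes passed the limma test, as did 0 of the 14497 genes tested (0.00% called). At an unadjusted p under 0.05 there were 2 of the 8 genes, against 3.33% of all genes. Cyp4a3 had the smallest p of all genes: with 973, 780.2 and 953 in rapamycin foci against 263, 357 and 497 in placebo foci it was 2.49-fold higher, a log2 difference of 1.32 ± 0.22 with a 95% interval from 0.84 to 1.80, and an adjusted p of 0.512. The groups did not overlap for Cyp4a3, and an exact permutation test of 3 against 3 animals can give no p below 0.1. All 3 arrays of rapamycin animal 3, at 872, 839.6 and 1182, lay above the highest placebo animal. Without placebo animal 3 the difference was 1.55 and passed (adjusted p = 0.0459), and without rapamycin animal 3 it was 1.27 (adjusted p = 0.0568).

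Crot came next among the 8, at 89.7, 84.4 and 54.9 in rapamycin foci against 32.7, 33.2 and 56.6 in placebo foci. Its difference of 0.92 ± 0.24 ranked 18 among all genes by the size of the moderated t (unadjusted p = 0.00195, adjusted p = 0.985), and the groups overlapped through rapamycin animal 3 and placebo animal 3. The other differences were 0.57 ± 0.34 for Pdk4, 0.46 ± 0.32 for Ehhadh, 0.31 ± 0.22 for Cyp4a1, 0.17 ± 0.28 for Cpt1a, 0.16 ± 0.26 for Ppara and 0.00 ± 0.29 for Cyp4a8. All 8 differences were above 0, where 52.1% of all genes were, but those of Cyp4a8, Cpt1a and Ppara turned below 0 when single animals were left out. Only Cyp4a3 was without overlap, 1 of 8 genes, against 6.04% of all genes. The 95% intervals reached from -0.61 to 0.62 for Cyp4a8 and from -0.42 to 0.76 for Cpt1a, so changes within them remain possible. Larger differences, such as those of Cyp4a3 and Crot, also went without a call in this comparison.

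In the wider pathway 0 of 117 genes were called by limma between rapamycin and placebo foci, 5 had an unadjusted p under 0.05, and the median difference was 0.04, beside 0.01 over all genes. Rapamycin and placebo foci did not overlap for 6 of the 117, a share no larger than the 6.04% of all genes, and Slc27a5, with 187, 149 and 119 against 64.2, 73.8 and 109, was 1 of them. None of the cell markers was called by limma in this comparison. At an unadjusted p under 0.05 were 1 of 7 hepatocyte, 2 of 6 biliary and oval cell, 2 of 6 macrophage and 0 of 7 stellate cell and matrix markers. Of the biliary and oval cell markers 5 of 6 had a difference below 0, as did 5 of 6 macrophage and 7 of 7 stellate cell and matrix markers, and their part in the differences was not tested.

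Over the 12 animals the 8 genes fell into patterns that the correlation of log2 intensities describes. These correlations hold the differences between the 4 groups, so they restate them in part, and they carry no test. Crot correlated with Pdk4 at 0.963, with Cyp4a1 at 0.953 and with Cyp4a3 at 0.936, but with Ehhadh at -0.06. Ehhadh correlated with Ppara at 0.929. For deviations from the group means Crot and Ehhadh correlated at 0.862 and Cyp4a1 and Ehhadh at 0.784 (-0.29 with the group differences kept). In each group Ehhadh was lowest in the animal of narrowest array spread (normal animal 2, AAF/PH animal 2, placebo animal 2 and rapamycin animal 3). For Crot this held except in placebo foci, and for Cyp4a1 except in normal liver. Whether array spread bears on these correlations was not tested. Among all other genes with a settled symbol, that most like Cyp4a1 was Eci1 (r = 0.993, and 0.895 for deviations from the group means), which averaged 342 in AAF/PH liver and 218 in normal liver. The gene most like Crot was Polr3gl (r = 0.98), and Angptl4 was the third (0.943). The gene most like Ehhadh was Tmem150a (0.987), that most like Cyp4a8 was Aox3 (0.971), that most like Ppara was Herpud1 (0.97), and that most like Pdk4 was Hist1h4b (0.96). Cyp4a3 was closest to Fgb (0.943) and Cpt1a to Sesn1 (0.917).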

How the data were processed

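The 14 arrays were of the Affymetrix design Rat Gene ST 1.0, read in 1 colour. The deposited intensity values are linear, from 2.14 to 14037.8 over 28826 probe sets. The submitters' processing notes name Partek 6.6 and RMA, which corrects background, normalizes arrays and summarises probes, and do not state what each was used for. The design provided for linear values, and log2 was therefore taken here with no pseudocount. For rapamycin animal 3 the log2 values of its 3 arrays were averaged, where the series' design text speaks of raw values. In the platform annotation 15209 probe sets carry 1 gene symbol, 306 several and 13311 none. The brightest per gene was kept, which left 14497 genes, of which 494 had a choice. The number of arrays limits the precision.

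One limma 3.58.1 fit (lmFit and eBayes, 2-sided, R 4.3.3, with data.table, version 1.17.8) held the means of 4 groups of 3 animals. It had 8 residual degrees of freedom and 6.38 from the prior. Benjamini-Hochberg adjustment ran over all genes, and calls were made at an adjusted p below 0.05 in each of 6 comparisons. The calculation was tested on simulated data. The members, lists and alternatives were chosen with earlier results of these data known, so no list is independent support. From each list up to 3 called genes of smallest p per comparison could be named with values. Fabp4, Fabp5, Cpt1c and Acot2, the lists of genes called in both comparisons with AAF/PH liver, and Slc27a5 between the foci were chosen after their values were seen. Animals with the same number were not paired: in no comparison did all 3 same-numbered pairs correlate above 0.1 in their deviations. Of the 134 pathway genes, 17 had no single-gene probe set and were not analysed here. Promoter sequences and gene order are from RefSeq (GRCr8), used for those only.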

Additional observations from a re-analysis of the deposited data

How the results depend on the processing

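Over 19 alternatives per comparison, 841 results of the 8 genes kept direction and side of the threshold, 37 lost the call, 14 gained it and 20 changed sign, all of the last without a call. The cause of these shifts was not tested. Not every alternative could move every value. Those on the arrays of rapamycin animal 3 left differences between the other groups as they were. The replicate block and the fit of only the compared groups also left the differences as they were. Such alternatives could change only the p, so the count of unchanged results overstates how stable the values were. After quantile normalization Pdk4 and Cpt1a in AAF/PH against normal liver became 0.14 and 0.034, and after median centring Crot there became -0.052. Between rapamycin and placebo foci Cyp4a8 became -0.026 with quantile normalization and -0.062 with median centring, and lay between -0.12 and 0.17 when single animals were left out, below 0 without placebo animal 1 or 3 or rapamycin animal 2 or 3. There Cpt1a lay between -0.13 and 0.49 and Ppara between -0.20 and 0.47, both below 0 without rapamycin animal 2. Cpt1a in rapamycin foci against AAF/PH liver became 0.13 with the second laser capture of rapamycin animal 3 alone and lay between -0.34 and 0.28 when animals were left out, above 0 without rapamycin animal 3 or AAF/PH animal 3. In placebo foci it lay between -0.35 and 0.040, above 0 without AAF/PH animal 3.

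Array weights were unstable: the planned REML estimate stopped before it converged and gave rapamycin animal 1 a weight of 0.00897, whereas a gene-by-gene estimate, chosen after seeing the data, gave it 4.03. With REML weights Cpt1a and Ppara in rapamycin foci against normal liver became 0.085 and 0.17, and Cpt1a against AAF/PH liver 0.48. With gene-by-gene weights the last was 0.085, Cyp4a8 between the foci was -0.18, and 4 of the 8 genes (Cyp4a3, Crot, Pdk4 and Ehhadh), 16 pathway genes and 536 of all genes were called between rapamycin and placebo foci, against 1 of all genes with REML weights.

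The counts of calls moved more than the values. In rapamycin foci against normal liver, 33 pathway genes and 947 of all genes became 6 and 210 with only the compared groups in the fit, 70 and 4473 with gene-by-gene weights, and 7 to 54 and 224 to 2051 when single animals were left out. In placebo foci against normal liver, 39 and 1192 became 87 and 6443 with REML weights, 82 and 5315 with gene-by-gene weights, 66 and 2297 with only the compared groups, and 23 to 39 and 606 to 1106 when animals were left out. In AAF/PH against normal liver, 2900 of all genes became 7996, 6854 and 5115 under the same 3 settings, and 1552 to 2717 when animals were left out. In rapamycin foci against AAF/PH liver, 16 and 581 became 33 and 1161 with quantile normalization, 41 and 1264 with REML weights, 63 and 3102 with gene-by-gene weights, 9 and 204 with only the compared groups, 375 of all genes with median centring, and 10 to 52 and 297 to 2058 when animals were left out. In placebo foci against AAF/PH liver, 19 and 608 became 33 and 1040, 45 and 2011, 41 and 1597, and 36 and 1334 under the same 4 settings in that order, 399 of all genes with median centring, and 10 to 15 and 330 to 448 when animals were left out. Between rapamycin and placebo foci 0 to 1 of the 8 genes and 0 to 3 of all genes were called when animals were left out.

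The replicate number as a block took 947 calls in rapamycin foci against normal liver to 555. Same-numbered animals share only a number, and their deviations correlated between -0.681 and -0.378 for rapamycin and placebo foci. Of the 8 genes the block removed the calls of Ehhadh (adjusted p = 0.0695), Cyp4a3 in rapamycin foci against AAF/PH liver (0.0632) and Ppara in placebo foci against AAF/PH liver (0.0695). Gene lists were chosen with earlier results known, no background level came with the arrays, and 3 animals per group limit the precision.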
